A study of Mus musculus with 3 samples.

Results

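Promoters that lack a CpG island were examined for binding of SRF, the serum response factor, in mouse cornea. A merged region of the authors' table belonged to this set where the authors listed 0 CpG islands in it and exactly 1 assigned gene had its start within 1000 bp. The rule used position and sequence annotation, not the measured signal. It chose 1045 of 31850 merged regions (3.28%), at 1022 genes, and 23 of these genes had more than 1 such region. The data are chromatin immunoprecipitation with an SRF antibody followed by sequencing, from whole cornea of mice of mixed background at about 8 weeks of age, without treatment. The mutant library is from Dstn-corn1 mice, whose germline mutation removes destrin, an actin-depolymerizing protein. The wildtype library is from mice without it, and an input library made without antibody has no genotype label and no values here. With 1 library of each genotype, and the number of mice behind it unstated, differences between genotypes could not be tested and no p-values appear. Genotypes follow the sample titles, since the growth notes of all 3 libraries mention mutant mice.

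SRF binds DNA as a dimer at the CArG box, a short A- and T-rich element framed by CC and GG. It works with cofactors of the MRTF family at genes of the actin cytoskeleton and muscle, and with TCF proteins at immediate early genes, which respond quickly to growth signals. CpG islands are stretches rich in the CG dinucleotide at the promoters of most broadly expressed genes. Promoters without one more often belong to genes used in particular cell types, and they tend to have more focused start sites.

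The absence of a listed island was set against the promoter sequence. RefSeq promoter windows (GRCm38.p6, 250 bases before to 50 after a start) were matched for 748 of the 1045 regions, and the nearest window was taken. The median CpG observed to expected ratio was 0.515 in these windows, against 0.834 in the 4039 windows matched to promoters of a single gene with an island. Median GC content was 54.7% and 63.7%. A window with at least 50% GC and a ratio of at least 0.6, a common definition of an island applied here to 300 bases only, was found at 29.1% of promoters without a listed island (exact binomial 95% interval 25.9 to 32.5). The share was 85.3% at promoters with a listed island (84.2 to 86.4) and 33.5% over all 32851 windows. Most windows thus lacked an island-like composition, but 218 of the 748 regions had a window with one. The authors' label is for the region, and 505 of the windows overlapped their region. Of these 505 windows, 137 were island-like (27.1%, 23.3 to 31.2).

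**Figure D1:**
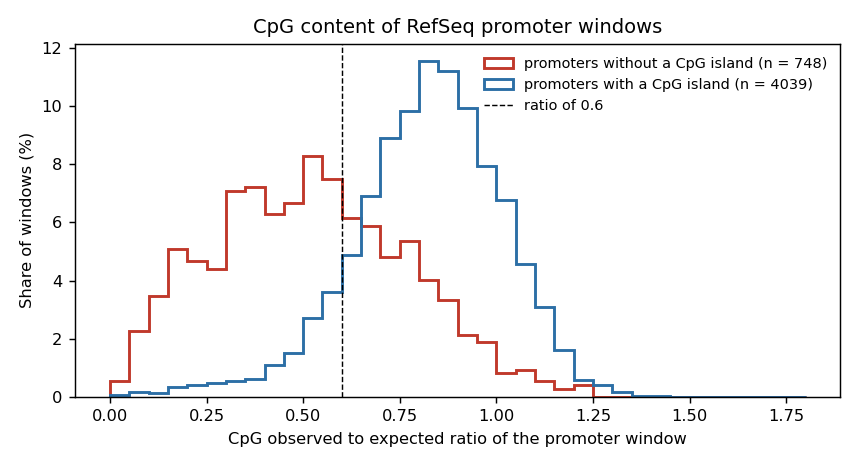
Share of matched promoter windows (y axis, %) by CpG observed to expected ratio (x axis), for promoters without a listed CpG island (red) and single-gene promoters with one (blue). The red distribution is broad, with a median of 0.515, and the blue one peaks to the right of it, with a median of 0.834; the dashed line marks 0.6.

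An exact CArG box (CC, then A or T at each of the 6 inner positions, then GG; the pattern reads as the same pattern on the other strand) was found in the windows of 11 of the 748 matched regions. These are 10 distinct windows, since both Gm1720 regions share one. The matches below are shown because the box lay inside the SRF region and before the gene start. Capitals mark the box, each sequence is written 5′ to 3′ on the strand of its gene, and coordinates are GRCm38.p6 from RefSeq.
Gm1720 (chrX:166661878-166661937, plus strand): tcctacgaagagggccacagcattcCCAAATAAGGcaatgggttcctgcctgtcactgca
Tmc4 (chr7:3677598-3677657, minus strand): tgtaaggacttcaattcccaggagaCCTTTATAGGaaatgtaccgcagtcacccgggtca
Alpk1 (chr3:127780595-127780654, minus strand): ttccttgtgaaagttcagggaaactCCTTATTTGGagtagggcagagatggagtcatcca
Cbr2 (chr11:120732095-120732154, minus strand): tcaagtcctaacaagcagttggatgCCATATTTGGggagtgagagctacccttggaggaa
Myo1e (chr9:70207293-70207349, plus strand): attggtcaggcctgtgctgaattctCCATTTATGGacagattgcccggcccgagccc
A530046M15Rik (chr13:15806993-15807042, plus strand): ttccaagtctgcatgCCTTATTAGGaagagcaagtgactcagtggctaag

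The box stood in the windows of 1.47% of the matched regions (exact binomial 95% interval 0.736 to 2.62), or in 1.36% of their 733 distinct windows (0.656 to 2.49), beside 1.63% of all 32851 promoter windows and 1.11% of single-gene promoters with an island (0.814 to 1.49). In the 505 windows that overlapped their SRF region the share was 1.78% (0.818 to 3.36). With 1 mismatch allowed, 21.5% of the windows matched, beside 21.1% of all windows. Other elements were searched on both strands. The ETS core CCGGAAG, read by TCF proteins and many other ETS factors, stood in 9.36% of the windows, 22.0% of island promoters and 8.86% of all windows. The AP-1 element TGANTCA stood in 8.56%, 3.37% and 7.81% of the same groups in that order, the GC box GGGCGG in 40.6%, 74.9% and 35.7%, and TATAAA in 8.16%, 5.37% and 13.6%. A match describes letters in a 300-base window and does not show a binding site.

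Heights are the authors' peak values, meaning the maximum of the signal in a region. The sources used here give neither the scaling nor the depth of the libraries. Dstn, the mutated gene, served as a check of the labels: the region over its start, which has an island and is no member, was listed at 0 in mutant and 35 in wildtype.

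Heights across promoters without an island were lower in the mutant library at most places. The median height was 13 in mutant (order-statistic 95% interval 12 to 14) and 27 in wildtype (24 to 28). The middle 50% of regions lay between 8 and 21 in mutant and between 17 and 45 in wildtype. The ranges overlapped widely, from 0 to 111 in mutant and from 4 to 266 in wildtype. All intervals given for medians and shares reflect the number of regions; variation between animals is not in them.

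Ratios are log2 of mutant over wildtype height after adding 1 to each, so differences of low regions are understated. The median ratio was -1.05 (95% interval -1.10 to -1.0), beside -1.10 over all merged regions. A 2-fold limit was used in place of a test, and 577 regions lay at least that far lower in mutant (55.2%, exact binomial interval 52.1 to 58.3), and the share of all merged regions was 59%. At least 2-fold higher in mutant were 4 regions (0.383%, 0.104 to 0.977), beside 0.414% of all. Height in mutant equalled or exceeded that in wildtype at 59 regions (5.65%, against 4.55% of all). These shares lay near those of the whole table, so the set as a whole did not stand out in its ratio. The ratio depends on scale. When the libraries were brought to one common median, taken over regions with calls in both, the median ratio was -0.029 here and -0.090 over all regions, and 59 regions (5.65%) were then at least 2-fold higher in mutant and 73 (6.99%) at least 2-fold lower. The shares of all merged regions were then 4.58% and 9.30%. In whole tissue, fewer cells with a bound site and less binding per cell cannot be told apart.

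**Figure D2:**
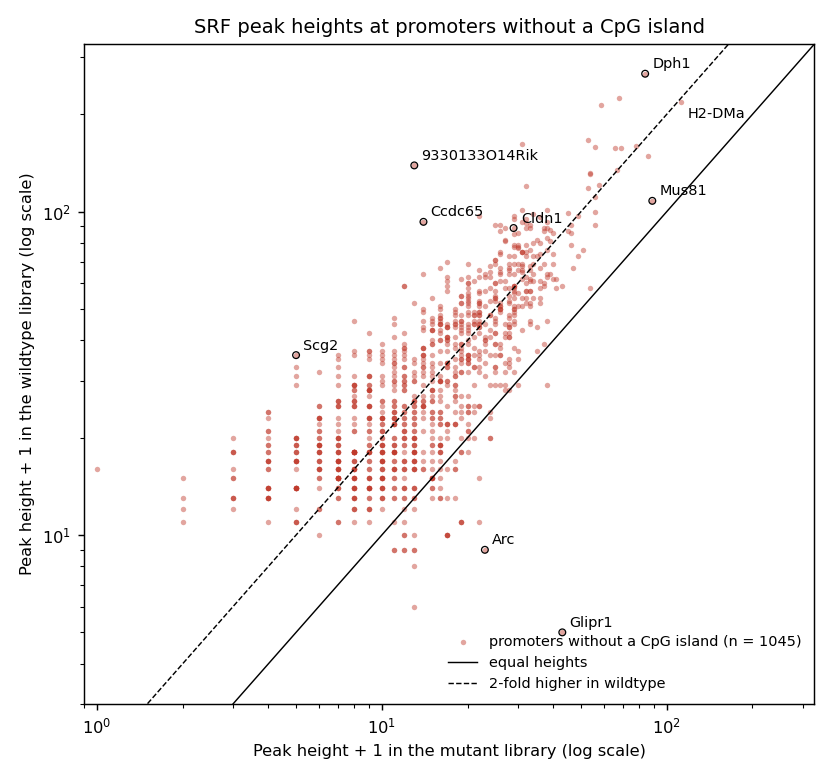
Peak height plus 1 in the mutant library (x axis, log scale) against the wildtype library (y axis, log scale) for the 1045 promoters without a CpG island, with some genes labelled. On or above the dashed line of a 2-fold higher wildtype height lie 577 points, and Glipr1 and Arc lie below the solid line of equal heights.

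The authors called an interval in mutant at 529 of the regions (50.6%, 47.5 to 53.7), beside 51% of all merged regions. In wildtype they called 1019 (97.5%, 96.4 to 98.4), beside 97.9%. Both libraries had a call at 503 regions, mutant alone at 26, beside 2.1% of all merged regions, and wildtype alone at 516. Every merged region had a call in mutant, in wildtype or in both. Regions called in a single library were thus partly chosen for a higher height there. Heights at the regions called in mutant only ran from 10 to 42 in mutant and from 4 to 14 in wildtype. A height did not decide a call by itself. Among the 516 regions without a mutant call, 6 had a mutant height of 20 or more, and the highest was at Mir5105 with 50 in mutant and 75 in wildtype.

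The 12 highest regions sat at genes of varied kinds. Dph1, an enzyme of diphthamide synthesis on a translation elongation factor, had the highest mean, with 83 in mutant and 266 in wildtype (chr11:75189560-75191426, mm10 as the authors list it, centre 10 bp upstream of the start). H2-DMa, a chaperone for peptide loading of class II MHC, reached 111 in mutant and 218 in wildtype at a centre 190 bp upstream (chr17:34135113-34135849). Vps72, a subunit of chromatin remodelling complexes, had 67 and 223, and Vps28, part of the ESCRT sorting machinery, had 58 and 212, in mutant and wildtype in that order. All 4 regions were called in both libraries, as were 48.9% of all merged regions, and wildtype was higher at each. Of members with a mean height of 50 or more, 96.8% were called in mutant.

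The promoter of Dph1 before its start is printed here because it carries the highest SRF region of the set, and that of Cldn1 because it is the highest member from the epithelial list below. Capitals mark GC boxes (GGGCGG or its reverse complement), and no CArG box, ETS core, AP-1 element or TATAAA was found in either stretch.
Dph1 (chr11:75190484-75190633, minus strand): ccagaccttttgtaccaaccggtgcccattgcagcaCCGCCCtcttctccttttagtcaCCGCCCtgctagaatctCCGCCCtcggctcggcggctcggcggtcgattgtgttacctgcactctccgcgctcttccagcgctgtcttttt
Cldn1 (chr16:26371840-26371989, minus strand): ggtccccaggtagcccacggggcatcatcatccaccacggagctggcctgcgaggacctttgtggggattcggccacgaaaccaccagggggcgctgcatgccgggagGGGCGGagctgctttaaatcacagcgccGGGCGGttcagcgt
The whole Dph1 window had a CpG observed to expected ratio of 0.784 and the Cldn1 window one of 0.638, so both had an island-like composition although the authors listed no island in the region.

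The rest of the 12 highest followed. Ccdc110, a coiled-coil protein gene, had 77 in mutant and 159 in wildtype, and Abca14, an ABC transporter gene, had 68 and 156. Ddx47, an RNA helicase gene, had 65 and 156, and Pafah2, which encodes an acetylhydrolase of platelet-activating factor, 66 and 134. The long noncoding RNA genes Gm20219 and 4930478P22Rik had 85 and 148 and 52 and 165, and the pseudogene Gm2240 had 55 and 158. Mus81, an endonuclease gene of DNA repair, was the most even of the 12, with 88 in mutant and 107 in wildtype and a log2 ratio of -0.28. Its region (chr19:5487462-5489744) is also assigned to Cfl1, the cofilin gene, whose start lies 1852 bp from the centre (listed at -1852). The summit lay 816 bp upstream of the Mus81 start in both libraries.

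The regions with the largest ratios in favour of mutant were few and mostly low. At Glipr1, a gene of the CAP protein superfamily, the region over the start had 42 in mutant and 4 in wildtype (log2 ratio 3.10; chr10:111996837-111997658). Arc, an immediate early gene known from neurons, had 22 and 8 at a centre 923 bp upstream (log2 ratio 1.35). Fam96a, a gene of iron-sulfur protein assembly, had 21 and 10. The ratio was 0.79 at Ttc12, 1110036E04Rik and 2200002D01Rik, each with 18 in mutant and 10 in wildtype. The authors made no wildtype call at any of these 6, while 97.9% of all merged regions had one. The 6 were picked for their ratios, so a low wildtype height was part of the choice. The remaining region past 2-fold, at Nat14, was low, with 12 in mutant and 5 in wildtype. It fell outside the naming rule and was added after its value was seen.

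The named regions with the largest ratios in favour of wildtype were not called in mutant, while 51% of all merged regions were. They too were picked for their ratios. The noncoding gene 9330133O14Rik had 12 in mutant and 138 in wildtype at a centre 979 bp past its start and a log2 ratio of -3.42. The start of Mvd, a gene of sterol synthesis, lies 1213 bp away (listed at -1213). Scg2, which encodes secretogranin II, had 4 and 35, and Ccdc65, a gene of motile cilia, had 13 and 92. C87198 and Mir149 had 4 and 30 and 4 and 28.

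**Figure D3:**
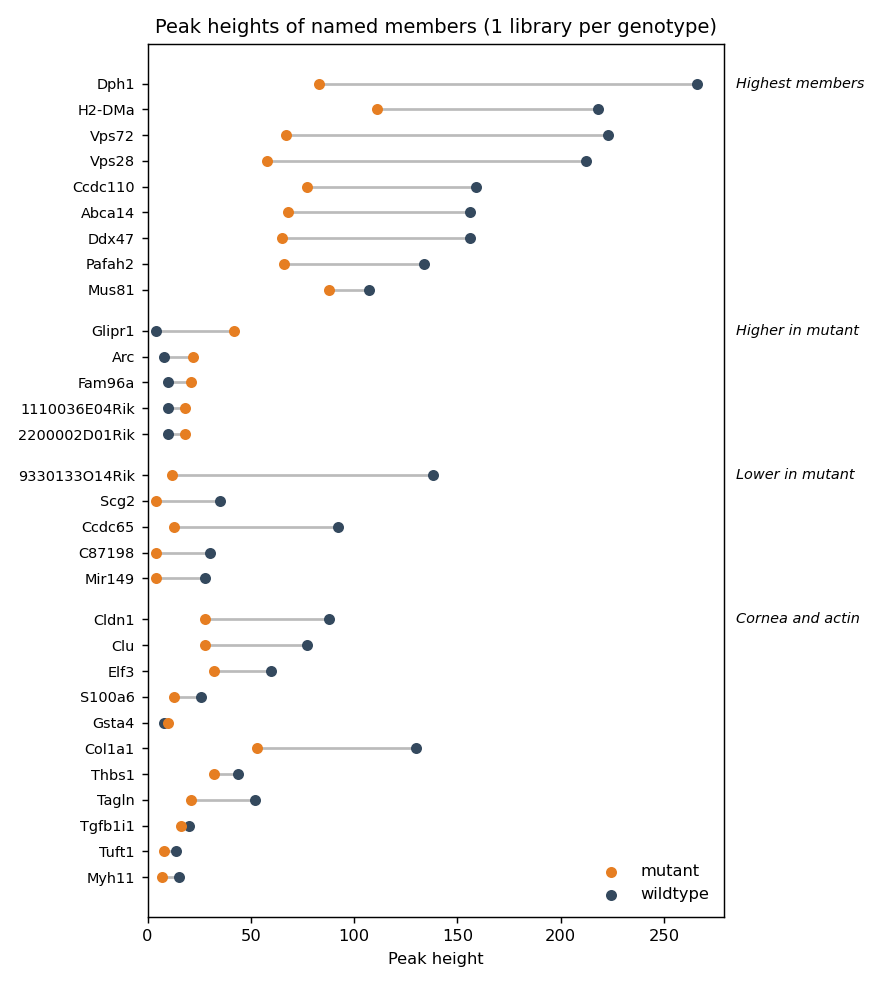
Peak height (x axis) of named members in the mutant (orange) and wildtype (dark blue) library, 1 value per library, joined by a grey line. Wildtype is the higher at all of the highest members, from Dph1 (83 and 266) to Mus81 (88 and 107), and the order is turned round at Glipr1 (42 and 4) and Arc (22 and 8).

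Lists of genes with known ties to SRF were set against the gene counts of both kinds of promoter, 1022 genes without an island and 4895 with one. Of 34 immediate early and TCF-linked genes, 33 had a region somewhere, 23 had one at a single-gene promoter with an island, and 2 had one at a promoter without an island. These were Arc, given above, and Egr3, a zinc finger factor, with 13 in mutant and 16 in wildtype at a centre 601 bp upstream. The median log2 ratio of these 2 was 0.54, beside -1.10 over all regions. It joins values of opposite direction, 1.35 at Arc, which was also picked for its ratio, and -0.28 at Egr3. Of 42 actin cytoskeleton and MRTF-linked genes, 4 had a promoter region without an island and 16 had one with an island. Tagln, the smooth muscle gene for transgelin, had 21 in mutant and 52 in wildtype with its centre at the limit of 1000 bp upstream. Tgfb1i1, a focal adhesion adaptor, had 16 and 20, Tuft1 had 8 and 14, and Myh11, smooth muscle myosin, had 7 and 15. None of the 4 was called in mutant, beside 51% of all merged regions, and 2 were at least 2-fold lower there, beside 59%. Their median ratio was -0.87. Calls followed height. Of all members, 13.2% below a mean height of 15, where Tuft1 and Myh11 lie, were called in mutant. The share was 38.6% from 15 to under 25, where Tgfb1i1 lies, and 90.3% from 25 to under 50, where Tagln lies. No gene of the 32 on the actin filament turnover list had a region in the set, while 11 had one at an island promoter. Of 50 striated muscle genes, Tnnt3, a fast skeletal troponin, was the only one with such a region, with 19 and 39, and none had one with an island.

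Of 73 genes of the corneal and other surface epithelium, 5 had a promoter region without an island and 7 had one with an island. The authors called all 5 in mutant, beside 51% of all merged regions. Calls followed height: of all members, 13.2% below a mean height of 15 and 96.8% from 50 upward were called there. Cldn1, a tight junction protein, had 28 in mutant and 88 in wildtype, with the summit 33 bp upstream in both libraries. Clu, a secreted chaperone, had 28 and 77, and Elf3, an epithelial ETS factor, had 32 and 60. S100a6, a calcium-binding protein, had 13 and 26. Gsta4, a glutathione transferase, went the other way, with 10 in mutant and 8 in wildtype, and was not called in wildtype. The list median was -0.95, and 2 of the 5 were at least 2-fold lower in mutant, beside 59% of all merged regions. Of 32 stroma and endothelium genes, 2 had a region in the set and 2 had one with an island. Col1a1, a chain of the main corneal collagen, had 53 and 130 at a centre 827 bp past its start, and Thbs1, which encodes the matrix protein thrombospondin, had 32 and 44 at a centre 830 bp upstream.

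Of 50 inflammation and cytokine genes, 4 had a region in the set and 4 had one at a single-gene promoter with an island. Ifit2, an interferon-induced gene, had 17 in mutant and 32 in wildtype, Il6 had 15 and 26, the chemokine gene Cxcl3 had 15 and 21, and Csf3, which encodes the growth factor of granulocytes, had 6 and 14. The list median was -0.81, with 1 member at least 2-fold lower in mutant, beside 59% of all merged regions. Of 50 leukocyte genes, Ptpn6, a phosphatase of blood cells, was the only one, with 9 and 29, and none had a single-gene promoter region with an island.

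Other groups were defined by gene symbol. Zinc finger genes whose symbol starts with Zfp had 30 regions, with medians of 9 in mutant and 16 in wildtype and a median log2 ratio of -0.73. Of these 30, 11 were at least 2-fold lower in mutant, beside 59% of all merged regions, and 8 were called there, beside 51%. Calls followed height: of all members, 13.2% below a mean height of 15 and 38.6% from 15 to under 25 were called in mutant. The highest Zfp regions were Zfp51 with 36 and 38, Zfp788 with 18 and 51, and Zfp663 with 20 and 47. Zfp54 had 21 and 36, and Zfp52 had 24 and 28. Solute carriers had 11 regions at 10 genes with a median ratio of -1.17, led by Slc52a3, a riboflavin transporter, with 46 and 66, and Slc25a45 with 26 and 81. Cytoplasmic and mitochondrial ribosomal protein genes had 4 regions here and 88 at island promoters. The 4 were Mrpl16 with 25 and 28, Rpl7l1 with 24 and 32, Mrpl35 with 14 and 22, and Rpl11 with 7 and 17. Olfactory and vomeronasal receptor genes had a region at Olfr658 only, with 3 and 19.

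Small RNA genes often lie in or near other transcripts, so the start to which such a region belongs cannot be told apart. MicroRNA symbols had 13 regions with medians of 16 in mutant and 37 in wildtype and a median ratio of -1.10. Mir145, a smooth muscle microRNA, had 32 and 50 at a centre 438 bp past its start, and its host Mir143hg had 19 and 47 at 978 bp upstream. Mir141, of the epithelial miR-200 family, had 21 and 45, and Mir1928 had 18 and 45. Small nucleolar and nuclear RNA symbols had 6 regions with a median ratio of -0.53. Rn7s2, a copy of the signal recognition particle RNA, had 52 and 117, Rnu2-10 had 31 and 56, Rnu3a had 27 and 32, Snord14e had 15 and 36 and Snord110 had 14 and 13. Genes of this kind have near-identical copies, and the sources used here do not say how reads matching several copies were placed.

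The kinds of genes differed from those at island promoters. RefSeq biotypes were found for 1001 of the 1045 regions by gene identifier. Protein-coding genes made up 79.5% of the regions, against 97.8% of the 5048 single-gene promoter regions with an island. Long noncoding RNA genes made up 10.8%, against 1.37%. Genes known only by a clone or predicted-gene symbol (Rik, Gm or LOC) held 206 regions (19.7%), against 217 (4.30%). Long noncoding RNA genes had a median of 15 in mutant and 31 in wildtype, and coding genes 13 and 25, with median ratios of -1.13 (95% interval -1.23 to -0.97) and -1.02 (-1.10 to -1.0).

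Variable segments of antigen receptor genes, which are joined in lymphocytes to make antibodies and T cell receptors, held 16 regions of the set and no single-gene promoter region with an island. The group was picked after its values were seen. Heights ran from 0 to 13 in mutant, with a median of 5.5, and from 12 to 42 in wildtype, with a median of 19.5. At least 2-fold lower in mutant were 15 of the 16, beside 59% of all merged regions. Calls were made at 2 in mutant, beside 51% of all, and at each in wildtype, beside 97.9%. The regions without a mutant call were listed through wildtype alone, so their lower mutant height was partly set by the choice of regions. The 7 Ighv regions, on chromosome 12, had medians of 5 in mutant and 24 in wildtype, the 7 Trav regions, on chromosome 14, had 4 and 15, and the 2 Trbv regions, on chromosome 6, had 8 and 29.5. Ighv2-3 was the highest, with 13 and 42. Trav6-1 was listed at 0 in mutant and 15 in wildtype, so no fold is given for it, though it counts among the 15. Segments of the same locus are related copies on the same chromosome, and these regions are not independent of each other. Without them the median ratio of the set was -1.03.

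The regions were spread more widely around the start than those at island promoters. The listed distance was that of the region's centre, to within 0.5 bp at all 1045 regions. The median absolute distance was 241 bp, against 115 bp at single-gene promoters with an island. The centre lay upstream at 637 regions (61.0%), against 53.2% at island promoters. The region covered the start at 57.7% (54.6 to 60.7), against 86.5% (85.5 to 87.4). From 750 to 1000 bp lay 218 regions, 20.9% of the set, against 3.47% of island promoters, and these included the regions just inside the limit, Tagln and Ccdc153 at 1000 bp upstream (21 and 52, and 11 and 13, in mutant and wildtype). The nearest ones outside were 1001 bp upstream of Scarb2, with 9 and 18, and 1001 bp past the start of Jakmip3, with 4 and 12. The median ratio differed little with distance: it was -1.04 within 250 bp, -1.0 from 250 to 500 bp, -1.12 from 500 to 750 bp and -1.05 beyond, with overlapping intervals.

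**Figure D4:**
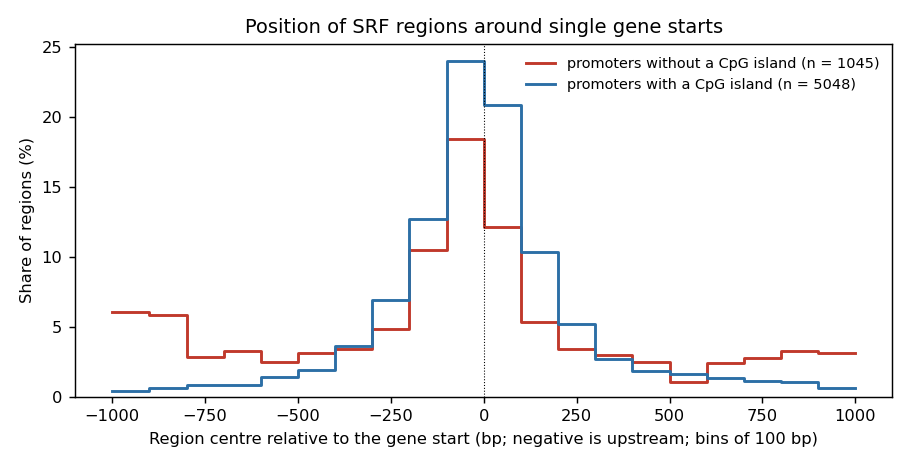
Share of regions (y axis, %) by position of the centre relative to the gene start (x axis, bp, in bins of 100 bp), for promoters without a CpG island (red) and single-gene promoters with one (blue). Both peak at the start, and the red line lies higher toward 1000 bp on either side (20.9% beyond 750 bp, against 3.47%).

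Summits sat at nearly the same place in both libraries. Over the 503 regions called in both, the summits were a median of 32 bp apart, and 420 (83.5%) were within 50 bp of each other. At island promoters the median was also 32 bp, with 66.3% of 2888 within 50 bp. At the named regions the gaps between summits came only in fixed steps, so these medians are coarse and their equality shows little. Of the wildtype summits, 29.6% lay within 100 bp of the start, against 46.7% at island promoters, and of the mutant summits 28.0%, against 43.1%. Regions were a median of 633 bp long, against 758 bp with an island. Of the 23 genes with more than 1 region, 19 were lower in mutant at each. At the other 4, Cgnl1, Gm1720, Rdh11 and Ttc12, a single region reached or passed its wildtype height, such as 16 and 9 at Cgnl1 inside the gene beside 14 and 27 upstream.

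Set against single-gene promoters with an island, the set had the lower ratio, -1.05 against -0.78 (95% intervals -1.10 to -1.0 and -0.81 to -0.76), a difference of -0.27. It also had the smaller share of mutant calls, 50.6% against 61.6%. The gap followed height. Below a mean height of 15, the median ratio was -1.0 over 349 regions (-1.09 to -0.86), against -0.58 over 1731 island promoters. From 15 to under 25 it was -1.0 over 293 regions (-1.09 to -0.91), against -0.62. From 25 to under 50 it was -1.07 over 310 regions, against -1.03, and from 50 upward -1.23 over 93 regions, against -1.29, with overlapping intervals in both of these classes. Mutant calls were made at 13.2% and 38.6% of the regions in the lower classes, against 26.9% and 63.4% of island promoters, and at 90.3% and 96.8%, against 92.8% and 99.2%, in the higher ones. All merged regions had ratios of -1.10, -1.04, -1.14 and -1.21 over these classes, closer to promoters without an island than to those with one in the lower 2 classes. Read depth, which could not be set against these values here, was not tested.

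**Figure D5:**
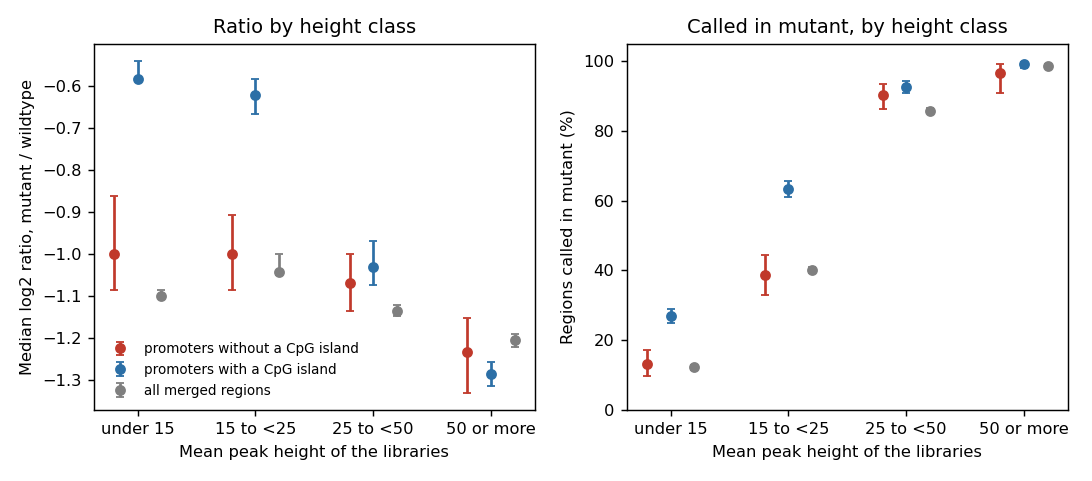
Median log2 ratio of mutant to wildtype height (left) and share of regions called in mutant (right, %) by mean height class (x axes), with 95% intervals over regions, for promoters without an island (red), single-gene promoters with one (blue) and all merged regions (grey). Red and blue part below a mean height of 25 (-1.0 against -0.58 and -0.62) and meet above it.

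The members with a CArG box in their window, some of whose sequences are given above, were mixed in height. Of the 11 regions, 8 had the box inside the SRF region, and in 5 of these it lay within 30 bp of the region's centre. Gm1720, a noncoding gene on the X chromosome, had 37 in mutant and 28 in wildtype at a region whose centre was 29 bp from the box, and its second region, 802 bp from the same box, had 20 and 37. Cbr2, a carbonyl reductase gene, had 15 and 12 with the box 12 bp from the centre. Myo1e, a class I myosin gene, had 14 and 12 without a wildtype call, and A530046M15Rik had 10 and 8. The lowest wildtype height with a call among the members was 9, so A530046M15Rik had no wildtype call either. At these 4 regions the mutant height was at or above the wildtype height. That is 4 of 11 regions, beside 4.55% of all merged regions, 5.65% of the set and 11.0% of single-gene promoters with an island. The number is small and the heights are low. Myo1e and A530046M15Rik were listed through their mutant call alone, so their higher mutant height was partly set by the choice of regions. Tmc4 went the other way, with 10 and 33, as did AW495222, with 14 and 32 and a box just past its start. Alpk1, a protein kinase gene, had 15 and 21. Trip6, a LIM domain protein gene of focal adhesions, had 7 and 13. Fbxl22, an F-box gene, had 17 and 48, and the noncoding gene Gm9054 had 3 and 16 (log2 ratio -2.09), with the box outside the region at both. Trip6, Gm9054 and A530046M15Rik fall outside the naming rule and complete the 11. The median log2 ratio of the 11 regions was -0.81, and that of the 737 matched regions without a box was -1.03. Other elements also had such gaps with and without a match: AP-1 -0.85 and -1.05, ETS -0.90 and -1.05, TATAAA -0.91 and -1.04. For the GC box the medians were -1.0 and -1.04, and for CCAAT, which went the other way, -1.04 and -1.01. At island promoters they were -0.53 with a CArG box and -0.78 without. Whether the box plays a part was not tested.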

How the data were processed

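The submitters' processing notes name BWA and the mm10 build. The sources used here do not say how intervals were called, filtered or scaled. The labels' growth protocol names mutants for all libraries, so genotype was taken from the titles. The signal values deposited by the authors are, per the file headers, a peak value and an average value for every merged region and library, with a 0 or 1 for a called interval. Depth is unknown. Coordinates, CpG island counts, gene assignments and distances are the authors' and are printed as listed, since the headers do not say whether starts count from 0.

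Computed here were log2 ratios of mutant to wildtype peak value with a pseudocount of 1, medians with order-statistic 95% intervals and shares with exact binomial intervals. No test was run. The RefSeq window nearest the region's centre was taken by gene identifier, without a distance limit, so some windows lie away from their region. At H2-DMa the 150 bases before the matched start (chr17:34125368-34125517) lay outside both of its regions. No window was found for 297 regions. Chromosome 18, with 26 members, has none, and why the other regions lack one was not examined. The interval code and the box search were tested on simulated data. Named genes were the 12 highest members, the 6 largest ratios each way among members with a height at or above the median of the higher library, up to 5 members of each of 14 lists, the 8 highest with a CArG box and the regions nearest the distance limit. Some results that the rule names are not reported here. Another 3 lists were made after values were seen. Members and lists were chosen with earlier results of these data known. Python 3.11.15, numpy 2.4.6, pandas 2.3.3, scipy 1.17.1 and matplotlib 3.10.9 were used.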

Additional observations from a re-analysis of the deposited data

How the results depend on the processing

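The direction of the difference from island promoters held under every alternative run. That of the median ratio held under all but the scaled libraries, where scaling brings the library medians together by design and so cannot show a direction. Sizes and counts moved. The cause was not tested, except that some alternatives enter fewer regions and that scaling and the pseudocount change the ratios by definition. The median ratio was -0.87 with a pseudocount of 5, -0.78 with average values, -0.029 with scaled libraries (interval -0.084 to 0.011, which includes 0), -0.96 over regions called in both and -1.11 over regions at or above the median mean height of 20.5. Over the last, median heights were 22 in mutant and 45 in wildtype, and 84.5% were called in mutant. Regions at least 2-fold lower in mutant numbered 436 with the pseudocount of 5, 358 with average values and 73 scaled. They numbered 238 if called in both and 301 above that height. Those 2-fold higher numbered 2 with the pseudocount of 5, with average values and within 500 bp, 59 scaled, 0 if called in both (no replicated test was run) and 1 above that height. The difference from island promoters was -0.18 over regions called in both and -0.026 above that height, where its interval (-0.11 to 0.068) includes 0. The CArG share was 21.5% with 1 mismatch. Alternatives with overlapping windows, without V segments and within 250 bp were chosen after seeing the data; they moved no value past its interval. No paired analysis was possible because there was only 1 library for mutant and 1 for wildtype. What depth allows at low regions is unknown, as the files give no read totals.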

Other observations

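Other gene groups stood out only on reading the members' names, after their values were seen, so they are given as values. Genes of the cilium, the antenna-like or beating projection of many cells, were represented by a list of 10 picked from the set. The list is not complete. It had 14 regions, with a median log2 ratio of -0.59. Of these, 6 were at least 2-fold lower in mutant, beside 59% of all merged regions, and 9 were called there, beside 51%. These values describe the picked genes only. Ift46 and Ttc26, of intraflagellar transport, had 29 in mutant and 77 in wildtype and 27 and 72, and Kifap3, a subunit of the kinesin that carries such trains, had 25 and 74. Tctn1 and Tctn2, of the transition zone at the base of the cilium, had 34 and 36 and 40 and 61. Nme5, a gene of motile cilia, had 16 and 9, and Ccdc65, given above, had 13 and 92.

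A list of 6 genes of antigen presentation and cytokine or interferon response, picked from the set and not complete, had 8 regions. Ifit2, given above, is not on it. The authors called all 8 in mutant, beside 51% of all merged regions. Their median heights were 31 in mutant and 84 in wildtype. Of all members, 90.3% from a mean height of 25 to under 50 and 96.8% from 50 upward were called in mutant. Besides H2-DMa, Trex1, a DNA exonuclease that limits interferon signalling, had 55 in mutant and 110 in wildtype, Irf9, a subunit of the interferon-activated factor ISGF3, had 32 and 90, and Gbp3, an interferon-induced GTPase, had 31 and 94. Stat6, a factor of interleukin signalling, had 31 and 78. The median ratio was -1.15, and the 2-fold limit was passed by 4 of the 8, all lower in mutant, beside 59% of all merged regions. Among genes of vesicle traffic, Copg1, a coat protein gene of Golgi vesicles, had 55 and 90, Gosr1, a Golgi SNARE, had 44 and 86, Kdelr1, a retrieval receptor, had 38 and 87 and Ehd2 had 35 and 79. Myl6, a light chain of nonmuscle and smooth muscle myosin outside the lists, had nearly even heights, with 53 in mutant and 57 in wildtype and a summit 319 bp upstream in both libraries.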
